A study of Mus musculus with 5 samples.

Results

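*Il1rl1*, *Il18r1* and *Il18rap* encode the receptors for the cytokines IL-33 and IL-18 and lie side by side on mouse chromosome 1. They are 3 of the 1355 genes listed in the table that compares bone marrow-derived dendritic cells (BMDCs) of *Irf8*-OE and control mice. They were chosen by name from that table, which holds genes that the authors had already called different between the groups. The levels given below are therefore a description of this contrast in these samples, and calls by the linear model are given without being read as evidence. Bone marrow cells of 8-week-old C57BL/6 mice, labelled as male, were cultured with 200 ng/ml Flt3L and 5 ng/ml GM-CSF. They were replated on day 9, and non-adherent cells were collected on days 15 to 16. The sample labels give stimulation with TNF-α (20 ng/ml) in both groups. The 3 *Irf8*-OE samples came from *Irf8* CAG-LSL *Itgax* Cre mice, in which Cre driven by the promoter of *Itgax*, the gene for CD11c, switches on a Flag-tagged *Irf8* transgene behind the CAG promoter. The 2 control samples are wild type in the labels and *Irf8* CAG-LSL, without Cre, in the text of the study. Nothing in the labels says whether samples came from separate mice.

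IL-33 is an alarm signal from damaged barrier and stromal cells, and it is sensed by ST2, the product of *Il1rl1*, together with the shared co-receptor *Il1rap*. IL-18 is released by inflammasome activation, binds the α chain encoded by *Il18r1* and signals once the β chain encoded by *Il18rap* joins. Both complexes recruit MYD88 through TIR domains and activate NF-κB and MAP kinases. ST2 is best known on mast cells, basophils, group 2 innate lymphoid cells and some T cells, and the IL-18 receptor on NK cells, T cells, mast cells and basophils. *Il1rl1* also makes a soluble decoy form of ST2 from the same gene.

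The values are normalized counts, which are reads per gene divided by 1 size factor per sample. In each of the 5 samples all values above 0 were whole multiples of 1 step, so that the reads behind them were recovered. The listed genes took 646123 to 1062127 reads a sample, a part of each library whose full depth is unknown here. *Irf8* itself had 2835 and 2747 normalized counts in the control samples and 7141, 6519 and 6021 in *Irf8*-OE. *Xist*, the RNA of the inactive X chromosome, averaged 0.562 normalized counts in the control samples and 12437 in *Irf8*-OE, whereas *Uty*, *Kdm5d*, *Eif2s3y* and *Ddx3y*, which are Y-linked, ranged from 484 to 1385 in the controls and were at 0 in every *Irf8*-OE sample. Sex and genotype thus divide the samples in the same way and cannot be told apart in any value below. In bulk samples, fewer cells of a type and less RNA per cell cannot be told apart either.

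All 3 genes are transcribed from the plus strand within 122 kb of chromosome 1 (mm10/GRCm38). *Il1rl1* (ENSMUSG00000026069) spans chr1:40429570-40465415, *Il18r1* (ENSMUSG00000026070) chr1:40465552-40500854 and *Il18rap* (ENSMUSG00000026068) chr1:40515362-40551705. The end of *Il1rl1* and the start of *Il18r1* are 136 bases apart, and 14507 bases separate *Il18r1* from *Il18rap*. In GENCODE vM21 no gene other than these 3 overlaps the interval, and no antisense gene is annotated in it. The deposited lengths of 6894, 4817 and 6752 bases equal the summed exons of *Il1rl1*, *Il18r1* and *Il18rap* in that annotation. *Il1rl1* has a distal and a proximal start site, at 40429570 and 40439629, that are 10.1 kb apart in RefSeq. The values are per gene, so that neither start sites nor the membrane and soluble forms of ST2 were separated.

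The bases just before the start sites of the 3 neighbouring genes are shown. GATA letters are marked in them because 2 GATA factors, described below, were also listed. Any part of GATA factors in the receptor levels was not tested. The sequences are from RefSeq (GRCm38.p6, plus strand, 5′ to 3′), and capitals mark the letters AGATAA or TGATAA on either strand, which GATA factors recognise. Printed are 250 bases each before the distal *Il1rl1* start (chr1:40429320-40429569), the proximal *Il1rl1* start (chr1:40439379-40439628) and the *Il18rap* start (chr1:40515112-40515361), and the whole 136-base gap before the first *Il18r1* start (chr1:40465416-40465551).
Il1rl1 distal: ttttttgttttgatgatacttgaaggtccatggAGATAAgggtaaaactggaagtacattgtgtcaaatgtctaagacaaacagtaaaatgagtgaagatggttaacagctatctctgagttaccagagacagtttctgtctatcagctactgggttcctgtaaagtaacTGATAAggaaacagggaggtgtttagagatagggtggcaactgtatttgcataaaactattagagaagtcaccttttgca
Il1rl1 proximal: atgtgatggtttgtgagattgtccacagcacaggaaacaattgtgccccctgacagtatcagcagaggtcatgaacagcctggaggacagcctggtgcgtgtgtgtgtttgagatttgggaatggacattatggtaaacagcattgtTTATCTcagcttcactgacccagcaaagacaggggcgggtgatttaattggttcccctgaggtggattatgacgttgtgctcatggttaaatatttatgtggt
Il18r1: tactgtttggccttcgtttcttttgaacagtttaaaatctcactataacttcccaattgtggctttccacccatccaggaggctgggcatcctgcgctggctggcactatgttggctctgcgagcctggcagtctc
Il18rap: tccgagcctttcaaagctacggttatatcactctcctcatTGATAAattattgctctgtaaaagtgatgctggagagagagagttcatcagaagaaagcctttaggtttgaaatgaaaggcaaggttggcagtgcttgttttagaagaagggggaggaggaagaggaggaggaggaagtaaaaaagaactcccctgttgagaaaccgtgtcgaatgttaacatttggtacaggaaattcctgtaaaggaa
The distal *Il1rl1* window held 2 GATA matches, 217 and 80 bases before the start. The proximal window held 1 on the minus strand, 103 bases before the start, and the *Il18rap* window held 1, 210 bases before the start. No GATA match lay in the 250 bases before any of the 3 RefSeq starts of *Il18r1*. For comparison, 16.6% of 32817 RefSeq promoter windows of 250 bases held such a match. Those windows were not matched for base composition, which ran from 37.6% to 56.4% GC over the windows of the 3 genes. An ISRE (GAAANNGAAA), an EICE (GGAANNGAAA), which is the composite site of IRF8 with ETS factors, and an AP-1 site (TGANTCA) were found in 2.97%, 2.3% and 6.75% of all windows and in none of the windows of the 3 genes. The RUNX letters TGTGGT stood in 14.0% of all windows and once among the 3 genes, 6 bases before the proximal *Il1rl1* start. All motifs were searched on both strands, and a match describes letters only. GATA with other letters around it, such as agatag in the distal *Il1rl1* window, was not searched and stays in lower case.

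*Il1rl1*, the binding chain for IL-33, was the most abundant of the 3 and differed most between the groups. It had 22806 and 22751 normalized counts in the 2 controls and 3153, 3502 and 3793 in the 3 *Irf8*-OE samples. Both controls stood far above every *Irf8*-OE sample, and the lowest *Irf8*-OE value belonged to the first sample. The mean was 22779 ± 38.9 (SD, n = 2) in the controls and 3483 ± 320.4 (SD, n = 3) in *Irf8*-OE, which is 6.54-fold lower. On the scale log2(normalized counts + 1), the log2 fold change was -2.71 (standard error 0.08, limma). The 2 controls differed by less than counting error, with a coefficient of variation of 0.171% where reads alone give 0.676%, and the *Irf8*-OE samples by more, with 9.20% where reads alone give 1.67%. The exact Poisson 95% intervals, which cover counting error only, ran from 22463 to 23122 over the controls and from 3047 to 3916 over *Irf8*-OE.

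*Il18r1*, the IL-18-binding chain, had 1017 and 912 normalized counts in the control samples and 325, 322 and 311 in *Irf8*-OE. Here the controls were the more variable group, with a coefficient of variation of 7.73% against 2.24% in *Irf8*-OE, the latter below the 5.50% that reads alone give. The mean was 964 ± 74.6 (SD, n = 2) against 319 ± 7.17 (SD, n = 3), which is 3.02-fold lower in *Irf8*-OE, with a log2 fold change of -1.59 (standard error 0.08).

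*Il18rap*, the signalling chain that completes the IL-18 receptor, had 2779 and 2660.0 normalized counts in the control samples and 864, 961 and 971 in *Irf8*-OE. As with *Il1rl1*, the first *Irf8*-OE sample was the lowest. The mean was 2719.7 ± 84.3 (SD, n = 2) against 932 ± 59.3 (SD, n = 3), which is 2.92-fold lower in *Irf8*-OE, with a log2 fold change of -1.55 (standard error 0.08). The plot of the levels by sample shows a gap between the groups for each gene that exceeds the spread within either group.

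**Figure D1:**
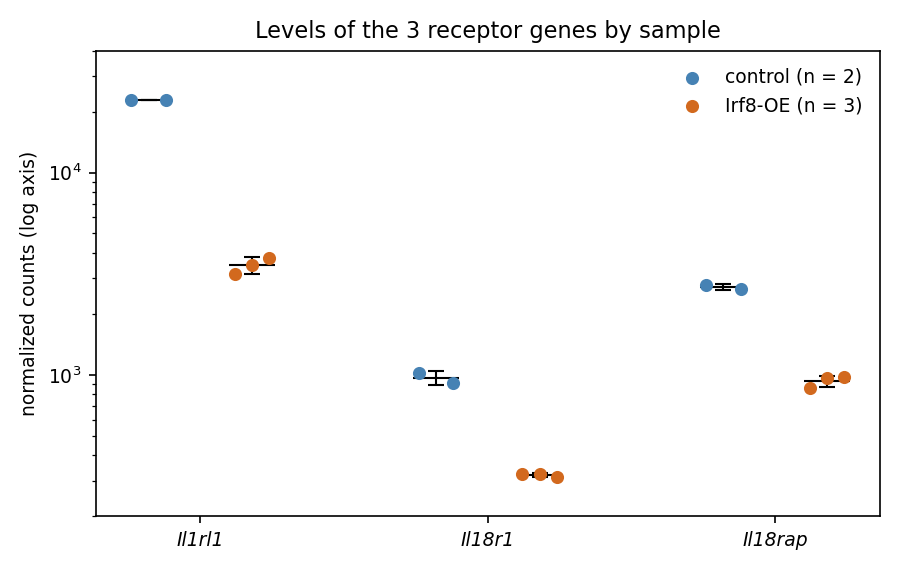
Normalized counts (log axis) of *Il1rl1*, *Il18r1* and *Il18rap* in the 2 control and 3 *Irf8*-OE samples. Points are samples, horizontal marks are group means and bars are SD; every control lies above every *Irf8*-OE sample, and *Il1rl1* falls from a mean of 22779 to 3483.

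For all 3 genes the groups were separate, as for 100.0% of the listed genes, and limma called all 3 lower, with an adjusted p under 0.05 and a log2 fold change beyond 1 in size. Since the table was built with this contrast, 99.1% of its genes were called in either direction and 41.0% were called lower, and nothing is read from the count. The member nearest to the threshold of 1 was *Il18rap*, at -1.55, and genes that missed it are not analysed here. The median log2 fold change of the 3 genes was -1.59, beside -1.65 for the 558 listed genes that were lower and 1.14 for all 1355. *Il1rl1* was 70th in order from the most negative log2 fold change, whereas *Il18r1* and *Il18rap* were 299th and 312th, near the middle of the lower genes. By mean level in the controls *Il1rl1* was 7th among the listed genes, and in *Irf8*-OE it was 40th. *Il18rap* moved from 74th to 155th and *Il18r1* from 150th to 308th. Together the 3 genes held 2.63% and 2.58% of the reads on listed genes in the 2 controls, compared with 0.680% to 0.782% in *Irf8*-OE.

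**Figure D2:**
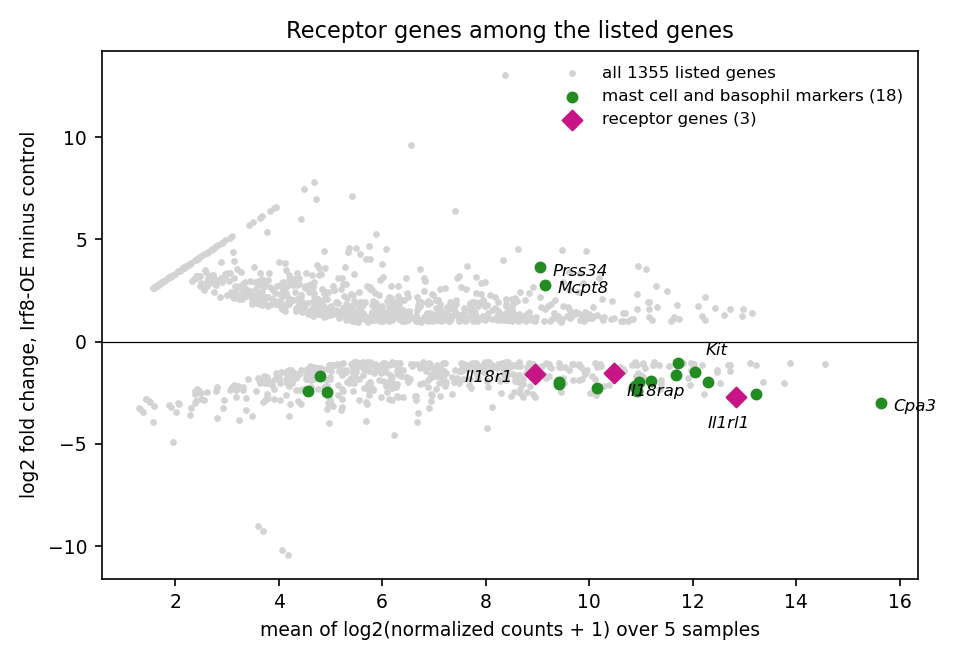
Log2 fold change (*Irf8*-OE minus control) against mean log2(normalized counts + 1) over the 5 samples for all 1355 listed genes (grey), 18 mast cell and basophil markers (green) and the 3 receptor genes (purple diamonds). The empty band around 0 is the authors' threshold, and the receptor genes lie at -2.71, -1.59 and -1.55 among most of the green points, with *Mcpt8* and *Prss34* on the other side of 0.

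Per kilobase of exon, the order of levels was *Il1rl1*, *Il18rap*, *Il18r1* in every sample. In the controls *Il1rl1* had 3304 ± 5.64 (SD, n = 2) normalized counts per kilobase, *Il18rap* 403 ± 12.5 and *Il18r1* 200.2 ± 15.5. In *Irf8*-OE the same levels were 505 ± 46.5 (SD, n = 3), 138 ± 8.79 and 66.3 ± 1.49. No sample of a group reversed a neighbouring pair in that order.

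In the values as deposited, the 2 chains of the IL-18 receptor had nearly the same proportion in both groups. The IL-33 receptor chain did not keep its proportion to either. Under quantile normalization most of its difference from *Il18r1* was lost, whereas it was still lower by more than *Il18rap*. The ratio of *Il18rap* to *Il18r1* per kilobase was 1.95 and 2.08 in the controls and 1.90, 2.13 and 2.23 in *Irf8*-OE. These ranges overlap, and the group means of 2.02 ± 0.0935 (SD, n = 2) and 2.08 ± 0.169 (SD, n = 3) differed by less than the spread within *Irf8*-OE. The ratio of *Il1rl1* to *Il18r1* per kilobase was 15.7 and 17.4 in the controls and 6.78, 7.60 and 8.51 in *Irf8*-OE, without overlap. The ratio of *Il1rl1* to *Il18rap* per kilobase was 8.04 and 8.38 against 3.58, 3.57 and 3.83, a mean that was 2.24-fold lower in *Irf8*-OE. A ratio within a sample does not depend on its size factor. Quantile normalization forces the same distribution on each sample, here over the listed genes only. These were all selected as different between the groups, so that an equal distribution cannot be assumed. Under it the log2 fold change of *Il1rl1* became -1.83 beside -1.59 for *Il18r1* and -1.29 for *Il18rap*. Most of the difference between *Il1rl1* and *Il18r1* was thus lost under that scaling. The 2 IL-18 receptor chains came apart under it, by more than *Il1rl1* and *Il18r1* did. That scaling moved the median log2 fold change of all listed genes by -0.36, from 1.14 to 0.79.

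**Figure D3:**
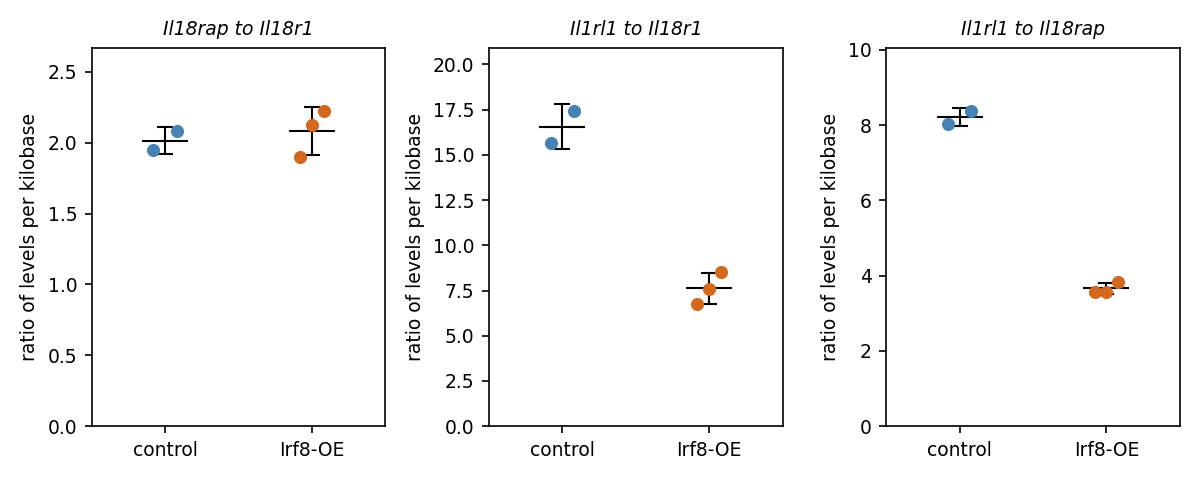
Ratios of levels per kilobase within each sample, for *Il18rap* to *Il18r1*, *Il1rl1* to *Il18r1* and *Il1rl1* to *Il18rap* in controls (n = 2) and *Irf8*-OE (n = 3). Points are samples, marks are means and bars are SD on axes that start at 0. As deposited, the first ratio overlaps between groups at about 2.02 and 2.08 and the other ratios are lower in *Irf8*-OE. After quantile normalization over the listed genes only, whose distributions cannot be assumed equal, most of the difference between *Il1rl1* and *Il18r1* was lost. *Il1rl1* was still lower by more than *Il18rap*.

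Around the cluster, the other receptor genes of the family on this chromosome, *Il1r2*, *Il1r1* and *Il1rl2*, and the next protein-coding gene downstream, *Slc9a4*, are not analysed here. Of 204 annotated genes within 5 Mb on each side, 9 were listed, and the 6 other than the members comprised 5 higher and 1 lower in *Irf8*-OE. The nearest was *Gm37347*, a transcript that GENCODE marks as awaiting experimental evidence and that lies inside the span of *Il1r2* on the same strand, 338 kb from the cluster, with a log2 fold change of 3.28. Reads of *Il1r2* and *Gm37347* may not be separable. *Chst10* and *Zap70*, which encodes a T cell kinase, had log2 fold changes of 2.35 and 2.97. The collagens *Col3a1* and *Col5a2* had 2.87 and 1.15, and the noncoding *Gm33280*, the lower one, had -2.28. Levels of *Gm37347*, *Chst10* and *Zap70* were far below those of the receptor genes. Their means were 0.960, 3.61 and 0 normalized counts in the controls and 15.7, 22.6 and 7.05 in *Irf8*-OE. Under quantile normalization *Zap70*, at 0.63, and *Chst10* were short of the threshold of 1. *Gm37347* was at 1.56, *Col3a1* at 2.71, *Col5a2* at 1.29 and *Gm33280* at -2.55. Over the whole of chromosome 1, 55 listed genes were higher and 50 lower.

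**Figure D4:**
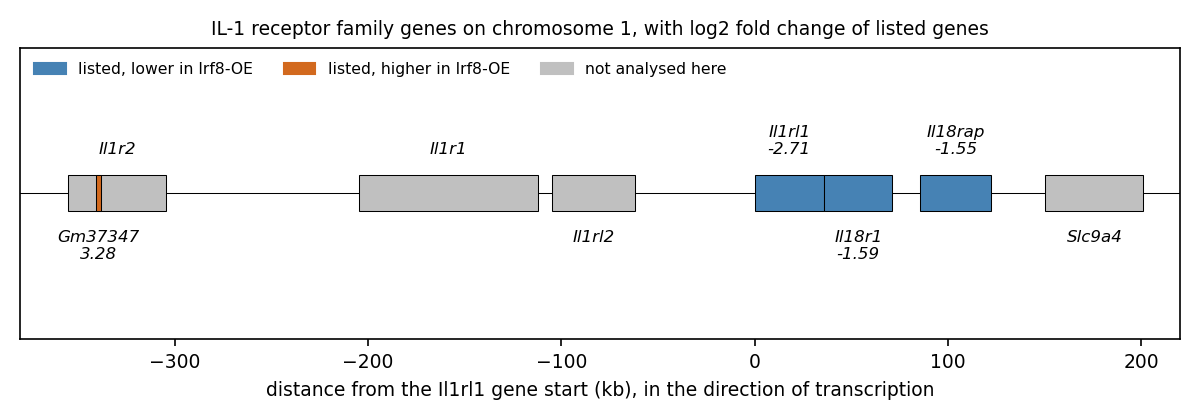
Protein-coding and listed genes around the cluster, drawn to scale by distance (kb) from the start of *Il1rl1*, with the log2 fold change (*Irf8*-OE minus control) under each listed gene. The 3 adjacent receptor genes (blue, at -2.71, -1.59 and -1.55) are lower in *Irf8*-OE, *Gm37347* (orange, 3.28, at a low level) is higher, and grey genes are not analysed here.

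The rest of the IL-33 and IL-18 pathway was described from lists of genes by role. Of 10 IL-1 family receptors, the 3 members were the ones listed, and the partner of ST2, *Il1rap*, and the inhibitory receptor *Sigirr* are not analysed here. Of 11 ligands and soluble inhibitors, including *Il33*, *Il18* and *Il18bp*, 0 were listed. Over all 1355 listed genes, 787 were called higher and 556 lower. Of 37 signalling genes below the receptors, 4 were listed and all 4 were called higher, against the direction of the receptors. These were the AP-1 subunits *Fos*, *Fosb* and *Junb*, with log2 fold changes of 3.55, 4.44 and 1.30, and *Nfkbiz*, an inducible NF-κB cofactor, at 1.68. *Nfkbiz* had 269 ± 35.1 (SD, n = 2) normalized counts in the control samples and 863 ± 63.1 (SD, n = 3) in *Irf8*-OE. Listed members of these lists had been called by the authors, so the counts give directions and no rate of change.

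Of 20 cytokine and chemokine genes that IL-33 or IL-18 can induce, 6 were listed, with 4 called lower and 2 higher. The type 2 cytokines *Il4* and *Il13* had 82.6 ± 3.97 and 58.1 ± 11.6 (SD, n = 2) normalized counts in the control samples and 40.3 ± 3.40 and 26.7 ± 6.03 (SD, n = 3) in *Irf8*-OE. *Il6*, a cytokine that IL-33 elicits from mast cells, had 759 ± 62.7 against 356 ± 53.9, and *Ccl24*, an eosinophil attractant, 74.7 ± 5.58 against 15.7 ± 0.937. Log2 fold changes of these genes were -1.02 for *Il4*, -1.10 for *Il13*, -1.10 for *Il6* and -2.18 for *Ccl24*. The neutrophil attractants *Cxcl1* and *Cxcl2* went the other way, at 2.16 and 2.31. Over the list the median log2 fold change was -1.06.

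Of 20 transcription factors known in cells that bear these receptors, 3 were listed. *Gata2* and *Gata1*, which specify mast cells, basophils and related lineages, were lower and *Irf8*, the overexpressed gene, was higher. *Gata2* had 6433 ± 84.7 (SD, n = 2) normalized counts in the control samples and 2104 ± 77.0 (SD, n = 3) in *Irf8*-OE, a log2 fold change of -1.61 (standard error 0.06). *Gata1* had 361 ± 19.0 against 158 ± 5.06, a log2 fold change of -1.19. *Gata3*, *Cebpa*, *Tbx21* and *Stat4* are not analysed here.

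Most listed markers of mast cells and basophils were lower, as the receptor genes were, whereas 2 basophil proteases were higher. Of 28 such markers 18 were listed, with 16 called lower and 2 called higher, beside 556 and 787 of all 1355 listed genes. *Gata2*, described above, is among the 16 and so is no separate observation. The sum of the 18 was 260272 to 265129.8 normalized counts in the controls, compared with 44358 to 47818 in *Irf8*-OE. *Cpa3* alone made up most of the control sums, with 175134 and 179473, and had 20272 to 24286 in *Irf8*-OE. The 16 lower ones had a median log2 fold change of -2.02, and 1 of them, *Cpa3*, was more negative than *Il1rl1*. Mast cell proteases were among them, with *Cpa3* at -3.00, *Tpsb2* at -2.58, *Cma1* at -2.29 and *Mcpt2* at -2.43, as were the IgE receptor chains *Fcer1a* and *Ms4a2* at -1.93 and -2.17. *Kit*, the stem cell factor receptor on which mast cells depend, had 7804 ± 372 (SD, n = 2) normalized counts in the control samples and 2812 ± 131.7 (SD, n = 3) in *Irf8*-OE, with a log2 fold change of -1.47. The 2 higher ones, *Mcpt8* and *Prss34*, are proteases of basophils, with log2 fold changes of 2.79 and 3.64. Under quantile normalization 14 of the 18 were called lower, and it left *Cpa3* with no difference by construction, since it was the highest listed gene in every sample. The part of these cells in the lower receptor levels was not tested.

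The receptor chains were also set against *Gata2*, *Kit* and *Cpa3* within each sample. This comparison was chosen after the values were seen, and *Gata2* and *Kit* are among the genes whose profiles were nearest to *Il18r1* and *Il18rap*, so that near-constant ratios to them restate that choice. Per 100 normalized counts of *Gata2*, *Il18r1* had 15.7 and 14.3 in the controls and 15.0, 16.0 and 14.6 in *Irf8*-OE, and *Il18rap* had 42.8 and 41.7 against 39.9, 47.6 and 45.7. The ranges of the groups overlapped for both chains. Per 100 normalized counts of *Kit*, *Il18r1* had 12.6 and 12.1 against 12.2, 11.3 and 10.7, which overlap, and *Il18rap* had 34.5 and 35.3 against 32.4, 33.7 and 33.2, which do not. *Il1rl1* had 351 and 357 per 100 of *Gata2* in the controls and 146, 174 and 178 in *Irf8*-OE, and 283 and 302 per 100 of *Kit* against 118, 123 and 129.8. It thus differed more than either of these genes. Per 100 normalized counts of *Cpa3*, all 3 receptor genes were higher in *Irf8*-OE, since *Cpa3* differed more than any of them. *Il1rl1* had 13.0 and 12.7 against 15.6, 15.7 and 15.6, *Il18r1* 0.581 and 0.508 against 1.60, 1.44 and 1.28, and *Il18rap* 1.59 and 1.48 against 4.26, 4.30 and 3.999.

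**Figure D5:**
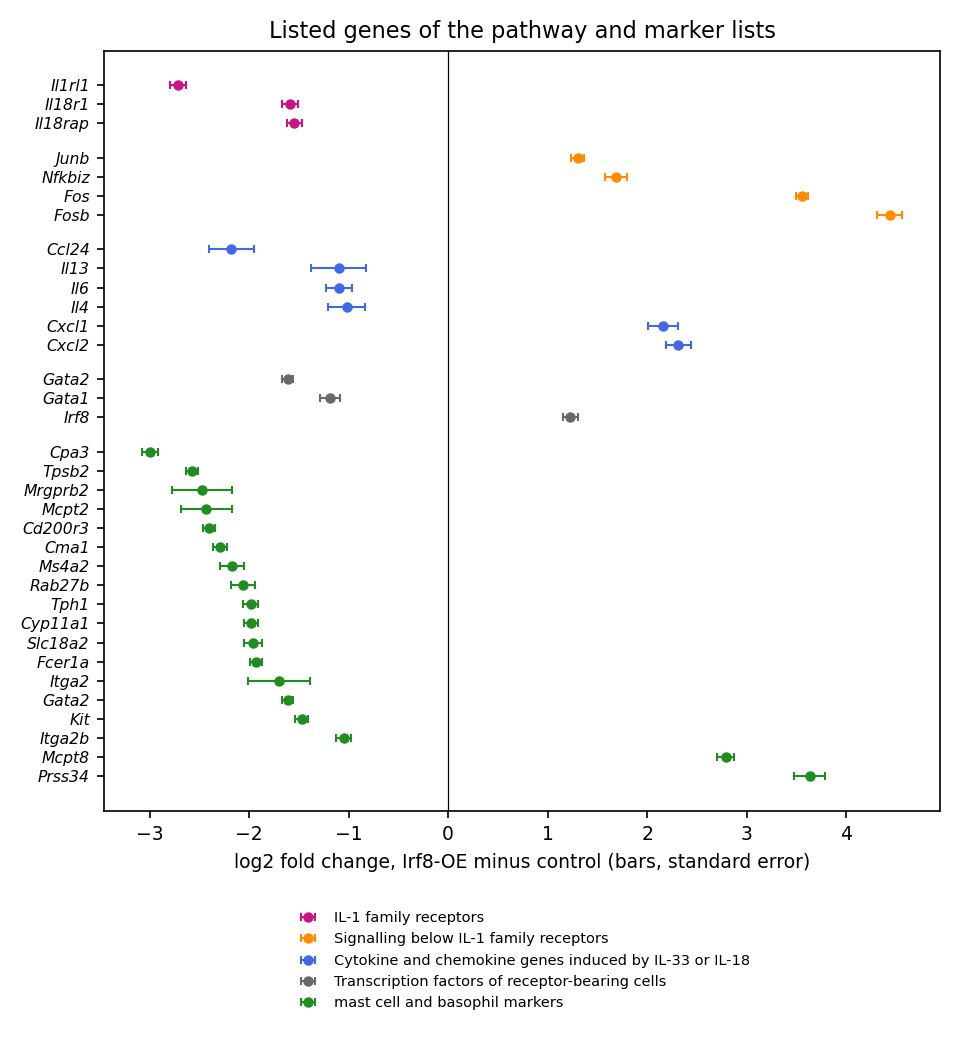
Log2 fold change (*Irf8*-OE minus control, with standard error) of the listed genes of the IL-1 receptor family, signalling, cytokine, transcription factor and mast cell and basophil lists. The receptors (purple), *Gata1*, *Gata2* and 16 of 18 mast cell and basophil markers (green) lie below 0. *Gata2* is itself among the 16 and is drawn in both lists. The 4 signalling genes (orange) lie above 0 as deposited. After quantile normalization *Cpa3* is at 0 by construction.

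Markers of other cells that can carry these receptors, or that the cultures could hold, were counted in the same way. For comparison, 787 of all 1355 listed genes were called higher and 556 lower. Of 12 markers of group 2 innate lymphoid cells 3 were listed, all lower: *Icos* at -1.82, *Il2ra* at -2.14 and *Il13*, which is also in the cytokine list. The defining *Gata3*, *Rora* and *Il7r* are not analysed here. Of 20 T and NK cell markers 8 were listed, with 6 higher and 2 lower. Among the 6, the T cell genes *Cd3e* and *Trbc1* had 0 normalized counts in both controls and means of 6.86 ± 5.68 and 7.34 ± 5.58 (SD, n = 3) in *Irf8*-OE, far below the levels of *Il18r1*. Under quantile normalization 2 of the 8 were called, both lower, and *Cd3e* and *Trbc1* were at 0.62 and 0.66. *Gzmb*, a granule protease of cytotoxic cells that mast cells also express, was lower, with 1189 ± 73.1 (SD, n = 2) against 375 ± 27.9 (SD, n = 3). The summed T and NK list ranged from 1214 to 1350.2 in the controls and from 490 to 535 in *Irf8*-OE. Most of each sum was *Gzmb*, with 1137 and 1241 in the controls and 345, 401 and 379 in *Irf8*-OE. The sum thus mostly restates *Gzmb* and does not describe the 6 genes that were higher. Of 10 eosinophil markers 6 were listed, with 2 higher, *Prg3* and *Epx*, and 4 lower, among them the IL-5 receptor chain *Il5ra* at -2.94. Of 12 neutrophil markers 4 were listed, with *Elane* and *Mpo* higher and *Ly6g* and *Mmp9* lower.

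Of 12 macrophage markers 8 were listed and all 8 were called higher, as were 787 of all 1355 listed genes. The summed level of the 8 was 4710.1 to 4901 normalized counts in the controls, compared with 23337 to 28075 in *Irf8*-OE. The labelled cell type was checked with 19 dendritic cell markers, of which 4 were listed. *Itgae*, which encodes CD103, and *Tlr11* were higher, at 1.62 and 1.75, and *Cd24a* and *Cd209a* were lower, at -1.38 and -3.03. Under quantile normalization 2 of the 4 were called, with *Tlr11* at 0.57 and *Cd24a* at -0.78 short of the threshold. The defining genes *Itgax*, *Zbtb46*, *Flt3*, *Clec9a* and *Batf3* are not analysed here, so that the identity of the cells could not be checked further. The part of any of these cell types in the receptor levels was not tested.

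The listed genes whose profiles over the 5 samples were most like each receptor were found by the root mean square difference of log2 values centred on the gene mean. All listed genes differ between the groups, so that this measure mostly orders genes by the size and direction of that difference. Nearest to *Il1rl1* were *Dtx3l*, *C530008M17Rik*, *Tmeff2* and *Slc45a3*, at 0.051 to 0.077. Nearest to *Il18r1* were the adhesion molecule gene *Pecam1*, *Gata2*, the growth factor receptor gene *Fgfr1*, *E330020D12Rik* and the kinase gene *Pim2*, at 0.038 to 0.063. *Il18rap* was most like *Kit*, at 0.042, followed by *Ero1l*, *Gm13053*, *Spag11b* and the zinc transporter gene *Slc39a8*. The 2 IL-18 receptor chains stood at 0.084 from each other, *Il18rap* being the 14th nearest to *Il18r1* and *Il18r1* the 16th nearest to *Il18rap*. *Il1rl1* stood 0.562 from *Il18r1* and 0.573 from *Il18rap*.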

How the data were processed

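RNA-seq (mRNA, paired-end, Illumina NovaSeq) of 2 control and 3 *Irf8*-OE BMDC samples was used. The submitters' processing notes name fastp, HISAT2 2.0.5, featureCounts 1.5.0-p3, DESeq2 1.20.0, edgeR 3.22.5 and mm10. Whether counting used strand is not given in the sources used here. The authors deposited 1 table of genes past their thresholds (FDR under 0.05, absolute log2 fold change above 1), with a signal per sample in normalized counts. The table also holds their group means, fold changes and p-values, which were not used. The deposited gene lengths, in bases, served for levels per kilobase. Of 1355 genes, 1354 are in GENCODE vM21, 1313 with the same start and end.

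A linear model (limma 3.58.1, R 4.3.3, empirical Bayes with trend) was fitted on log2(normalized counts + 1) over all genes without covariates, with Benjamini-Hochberg adjustment. A fold change on this scale understates the change of low genes. Because genes were selected by this contrast, no p-value is given for them. Reads were values divided by the smallest value above 0, and 100% were whole within 0.01 in every sample. In the third *Irf8*-OE sample 1 read stands for 1.004 normalized counts, so count tests were also run without it. Chi-square per gene between replicates was 2.40 to 8.23, above sampling noise, so each sample counted as 1 replicate. P-values then measure only the spread between these samples. Poisson intervals came from scipy 1.17.1.

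Members and lists were chosen with earlier results of these data known. Genes named are the members, listed genes of the pathway and marker lists (some by count or range only), listed genes within 5 Mb, *Irf8*, sex-linked genes and the 5 nearest profiles per member, of which 1 is not reported here. Scripts were tested on simulated data. Alternatives were pseudocounts of 0.1 and 10, quantile normalization, a filter of 10 normalized counts, a replicate block, DESeq2 1.42.0 and edgeR 4.0.16 on recovered reads, and leaving out each sample; those without genes on X and Y, or with count tests lacking the third *Irf8*-OE sample, were chosen after seeing the data.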

Additional observations from a re-analysis of the deposited data

How the results depend on the processing

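Under all 16 alternatives each of the 3 receptor genes stayed lower in *Irf8*-OE and past the thresholds, a description of genes listed for this contrast. The log2 fold change of *Il1rl1* ranged from -2.78 to -1.83, that of *Il18r1* from -1.67 to -1.51 and that of *Il18rap* from -1.58 to -1.29, with the values nearest 0 for *Il1rl1* and *Il18rap* under quantile normalization. Leaving out 1 sample in turn gave -2.78 to -2.64, -1.67 to -1.51 and -1.58 to -1.49 for *Il1rl1*, *Il18r1* and *Il18rap*; where 1 control remained, it was assumed to vary like the other group. The number of listed genes called, 1343, became 1031 after quantile normalization, 1145 with a pseudocount of 10, 1354 with DESeq2 and 1353 with edgeR on recovered reads, and 1304 and 1322 with these tools without the third *Irf8*-OE sample. With the replicate block by the number in the sample titles, which leaves the third *Irf8*-OE sample alone in its block, the log2 fold change was -2.78 for *Il1rl1*, -1.57 for *Il18r1* and -1.58 for *Il18rap*, and 1319 genes were called. With the block by the number in the descriptions, which leaves out the first in the same way, the values were -2.64, -1.60 and -1.49, and 1271 genes were called. The correlation of deviations of same-numbered samples was 0.027 and 0.021 by title and -0.021 and 0.009 by description, and nothing in the labels pairs the samples. The log2 difference in the ratio of *Il1rl1* to *Il18r1* per kilobase was -1.12 and stayed between -1.20 and -1.04 with 1 sample left out. The table holds called genes only, so none of these settings could show a listed gene against unchanged ones.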
